A study of Mus musculus with 6 samples.

Results

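The genes described here are 42 mouse genes of the lysosome, chosen by symbol. They comprise 12 acid hydrolases, 2 soluble cofactors of lysosomal lipid handling, 10 membrane proteins, 15 subunits or accessory proteins of the vacuolar proton pump (V-ATPase) and the 3 transcription factors Tfeb, Tfe3 and Mitf. The cathepsins were left out. All 42 were found among the 22298 entries of the deposited table. RNA came from ocular lenses of mice of the labelled strain C57BL/6 at postnatal day 0. There were 3 libraries from wild-type (WT) mice and 3 from Fyco1-/- mice, named A, B and C in each genotype, and each library was made from 10 lenses. How the Fyco1 allele was made is not given in the sources used here. Levels are FPKM, read counts scaled for gene length and for the reads of the library. In such bulk samples fewer cells of a type and less RNA per cell cannot be told apart.

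The lysosome is the acidic compartment in which cargo delivered by endosomes and autophagosomes is broken down. Its proton pump has a cytosolic V1 sector that hydrolyses ATP and a membrane V0 sector that carries protons. Most soluble hydrolases are carried from the Golgi by mannose 6-phosphate receptors, and many lysosomal genes are targets of Tfeb, Tfe3 and Mitf (the MiT factors), which bind E-box sites known as CLEAR elements. FYCO1 is an adaptor that links autophagosomes and late endosomes to kinesin, and lens fibre cells remove their organelles as they mature. The comparison of genotypes shows whether lysosomal transcripts differed in lenses of Fyco1-/- mice.

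The libraries held an estimated 17.0 to 20.0 M reads. Fyco1 itself stood at 5.40, 5.21 and 5.11 FPKM in WT libraries A, B and C and at 4.61, 4.59 and 4.87 in Fyco1-/- libraries A, B and C. The groups did not overlap, but the difference did not pass the test (log2 difference -0.15, limma adjusted p = 0.273), so the level of this transcript does not check the genotype labels. Crystallins made up 70.2% to 71.7% of summed FPKM. Lens epithelium markers (6 genes) summed to 470 to 522 FPKM in WT and 404 to 434 in Fyco1-/- libraries, and 2 of them, Pax6 and Sfrp1, fell. Foxe3, Cdh1 and Pdgfra overlapped between genotypes, and Gja1 had a positive difference (means 12.04 and 14.06 FPKM, log2 difference 0.22, limma adjusted p = 0.2003). Macrophage markers, of a cell type rich in lysosomes, summed to 4.36 to 6.12 FPKM in 5 libraries and to 33.2 in WT B, where Lyz2 alone gave 23.05. Of these 12 genes 6 were tested, none passed, and none was at 0 in every library. Vascular markers summed to 33.2 to 47.1 FPKM in WT and 33.7 to 36.0 in Fyco1-/- libraries, and pigment cell markers to 2.27 to 2.90 and 2.28 to 2.78. The part of these cell types in the results below was not tested.

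All 42 lysosomal genes passed the filter on low values, a mean of at least 0.5 FPKM over the 6 libraries. Each was tested with limma on log2(FPKM + 0.5) within one fit of 12001 genes, and a gene is said to have risen or fallen at a Benjamini-Hochberg adjusted p under 0.05 over all of them. Of the 42 genes, 1 rose in Fyco1-/- lenses (Atp6ap2) and 3 fell (Asah1, Psap and Cd63), which is 9.52% of them, where 8.43% of all genes tested passed (3.42% higher and 5.02% lower). The groups did not overlap for 17 of the 42 genes (40.5%), 8 higher and 9 lower in Fyco1-/-, against 29.7% of all genes tested. The median log2 difference was 0.0032, with 22 positive and 20 negative values, beside a median of -0.043 and 40.1% positive values over all genes. The 95% interval of each of the 42 differences lay within a 1.5-fold change of FPKM + 0.5 in either direction. A share near that of all genes says nothing particular about the list, and the values below are given gene by gene.

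**Figure D1:**
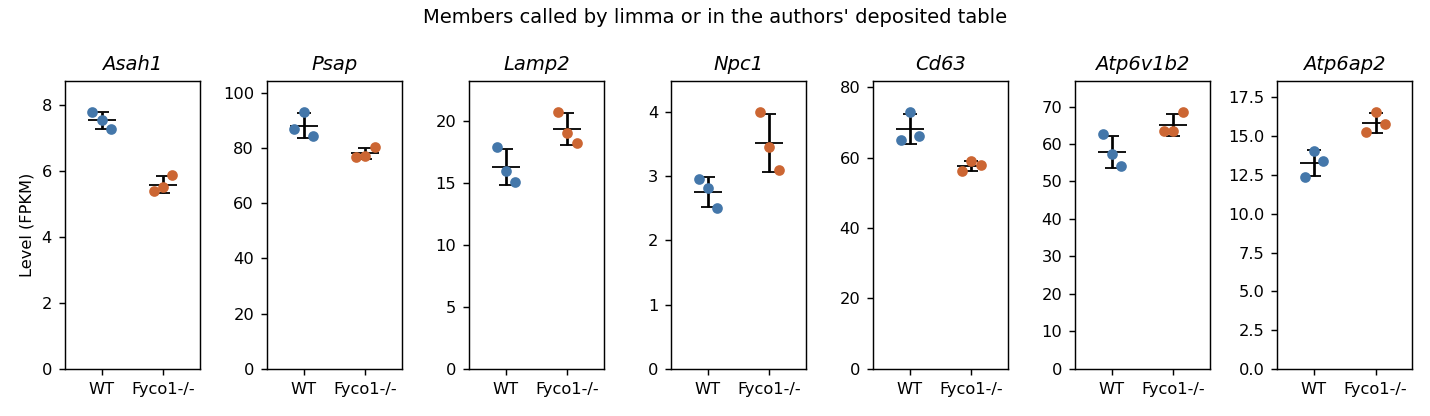
Levels in FPKM (linear axes from 0) of Asah1, Psap, Lamp2, Npc1, Cd63, Atp6v1b2 and Atp6ap2, the 7 lysosomal genes that passed either the limma test or the authors' own test. Each point is a library, blue for WT and orange for Fyco1-/-, with a bar at the mean and the SD of 3 libraries as error. Asah1 has the largest ratio between the genotypes, with means of 7.53 and 5.58 FPKM.

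Among the 12 acid hydrolases, none rose and 1 fell (8.33%, beside 8.43% of all genes tested). Their log2 differences were negative for 8 and positive for 4, with a median of -0.10. Of all genes tested, 40.1% had a positive difference. The gene that fell is Asah1, encoding acid ceramidase, which splits ceramide into sphingosine and a fatty acid. Asah1 (ENSMUSG00000031591, GRCm38 chr8:41340197-41374773, minus strand) stood at 7.78, 7.54 and 7.27 FPKM in WT and 5.38, 5.50 and 5.86 in Fyco1-/- libraries, each given in the order A, B, C here and below. Every Fyco1-/- library was below every WT library. Its mean was 7.53 ± 0.258 FPKM (SD, n = 3) in WT and 5.58 ± 0.252 (SD, n = 3) in Fyco1-/-, a ratio of 1.35. The log2 difference was -0.40 (SE 0.07, limma adjusted p = 0.00838). It stayed past the threshold in all 15 alternative analyses, including each of the 6 that left out a library (limma adjusted p 0.00674 to 0.0370).

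The most abundant hydrolase was Gaa, the acid alpha-glucosidase that degrades glycogen, at 27.4, 29.8 and 26.4 FPKM in WT and 27.9, 25.4 and 24.6 in Fyco1-/- libraries. Sgsh, a sulfamidase of heparan sulfate breakdown, was the least abundant at 1.69, 1.78 and 1.66 FPKM in WT and 1.73, 1.33 and 1.46 in Fyco1-/- libraries. The groups overlapped for both, and neither passed the test (log2 differences -0.10 and -0.15, limma adjusted p = 0.383 and 0.4995). For Asah1 and 3 other hydrolases the genotypes did not overlap, with Fyco1-/- lower each time. That is 33.3% of the hydrolases, near the 29.7% of all genes tested that did not overlap in either direction. Gusb, the beta-glucuronidase, stood at 14.6, 14.6 and 12.9 FPKM in WT and 11.7, 12.1 and 12.0 in Fyco1-/- libraries (log2 difference -0.22, limma adjusted p = 0.0701). Tpp1, a peptidase that removes tripeptides, was at 22.2 to 24.04 FPKM in WT and 20.0 to 21.8 in Fyco1-/- libraries (-0.14, limma adjusted p = 0.165). Glb1, the beta-galactosidase, was at 21.4 to 22.3 and 19.9 to 20.6 FPKM (-0.10, limma adjusted p = 0.257). None of these 3 passed over all genes. Glb1 and Hexa lie on chromosome 9, as Fyco1 does. On that chromosome 13.1% of the genes tested passed, beside 8.21% on other chromosomes, and the part of position was not tested. Glb1 shares exon bases with Tmppe on the same strand, and Sgsh and Hexa with genes of the opposite strand. The levels of these genes therefore depend on how reads of the shared bases were counted.

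The other 6 hydrolases overlapped between genotypes. Hexa, the alpha subunit of beta-hexosaminidase, was at 21.2 to 21.9 FPKM in WT and 21.2 to 22.2 in Fyco1-/- libraries, and its log2 difference of 0.0048 was the smallest of the group. Smpd1, the acid sphingomyelinase that makes ceramide, the substrate of acid ceramidase, was at 20.3 to 20.8 FPKM in WT and 20.3 to 21.7 in Fyco1-/- libraries (log2 difference 0.03, limma adjusted p = 0.757). Naglu, of heparan sulfate breakdown, and Lipa, the acid lipase, had log2 differences of -0.13 and -0.09, and Neu1, a sialidase, and Gla, alpha-galactosidase A, had 0.07 and 0.02. Gla is the gene with the fewest estimated reads of the 42, 89 to 139 a library. The summed FPKM of the 12 hydrolases was 157, 157 and 149 in WT and 147, 145 and 141 in Fyco1-/- libraries. The sums did not overlap, and the summed FPKM of the 6 lens epithelium markers, most of it from Sfrp1 and Foxe3, was also lower in every Fyco1-/- library.

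Both soluble cofactors had negative differences. Psap encodes prosaposin, from which the saposins that present sphingolipids to hydrolases are cut, and it was one of the most abundant of the 42 genes. Psap (ENSMUSG00000004207, GRCm38 chr10:60277627-60302597, plus strand) stood at 86.7, 93.0 and 84.4 FPKM in WT and 76.8, 77.1 and 80.3 in Fyco1-/- libraries. The groups did not overlap, and the mean was 88.0 ± 4.48 FPKM (SD, n = 3) in WT and 78.1 ± 1.96 (SD, n = 3) in Fyco1-/-, a ratio of 1.13. The log2 difference was -0.17 (SE 0.05, limma adjusted p = 0.0479). Psap passed in 5 of the 15 alternatives: leaving out any library but WT C ended the call (limma adjusted p 0.0696 to 0.153), as did median-of-ratios scaling (0.181). Npc2, which hands cholesterol to NPC1, stood at 24.3, 23.0 and 23.95 FPKM in WT and 22.5, 23.1 and 22.6 in Fyco1-/- libraries. Its groups overlapped and it did not pass (log2 difference -0.06, limma adjusted p = 0.483).

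**Figure D2:**
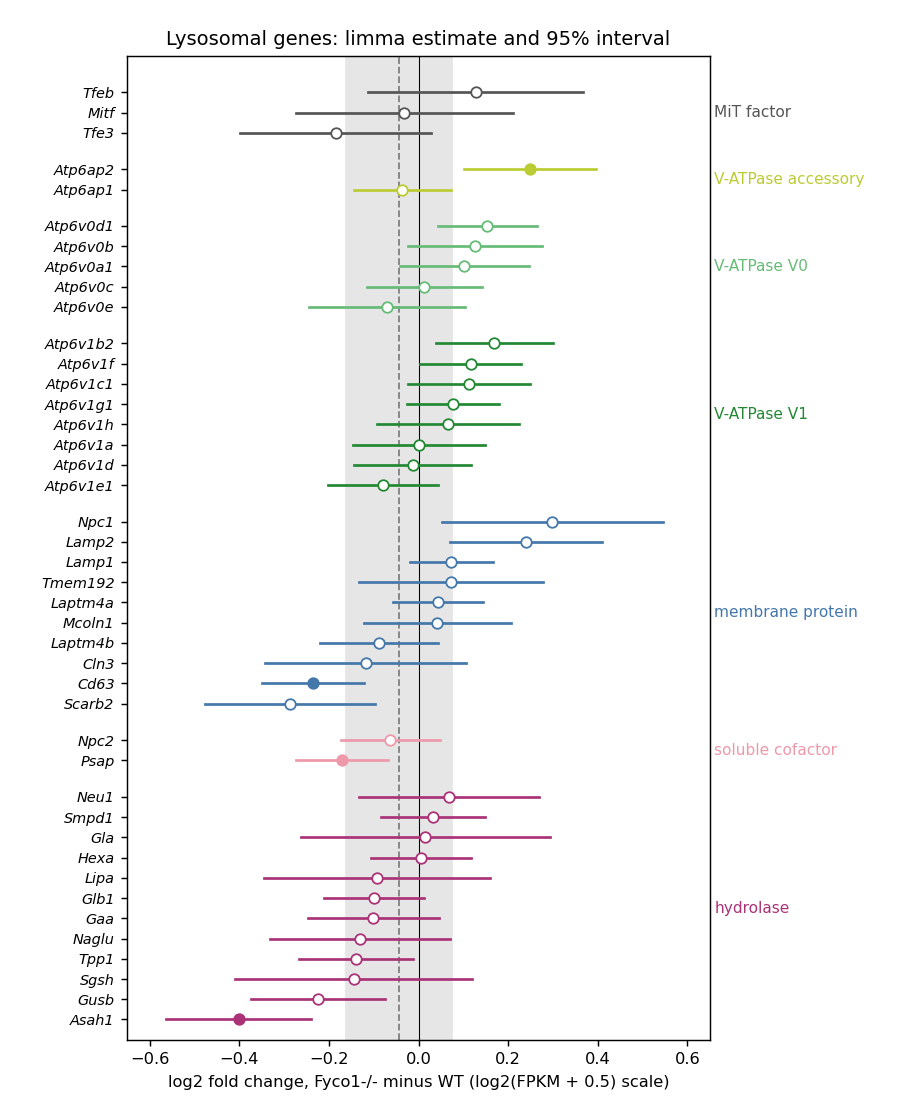
Log2 difference (Fyco1-/- minus WT, of FPKM + 0.5) of the 42 lysosomal genes with its 95% interval, ordered by role, from the limma fit. Filled points passed at an adjusted p under 0.05. The dashed line is the median of all genes tested (-0.043), and the grey band runs between their quartiles (-0.16 and 0.075). Most hydrolases have negative and most V-ATPase subunits positive differences, and 40.1% of all genes tested have a positive one.

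Of the 10 membrane proteins, none rose and 1 fell, 6 had positive and 4 had negative log2 differences, and their median was 0.043. The gene that fell is Cd63, a tetraspanin of late endosomes, lysosomes and exosomes. Cd63 (ENSMUSG00000025351, GRCm38 chr10:128900989-128912822, plus strand) stood at 65.04, 72.95 and 66.2 FPKM in WT and 56.1, 59.1 and 57.8 in Fyco1-/- libraries. All WT libraries were higher than all Fyco1-/- libraries. The mean was 68.1 ± 4.26 FPKM (SD, n = 3) in WT and 57.7 ± 1.48 (SD, n = 3) in Fyco1-/-, a ratio of 1.18, with a log2 difference of -0.24 (SE 0.05, limma adjusted p = 0.0195). The call ended without WT B (limma adjusted p = 0.0629), Fyco1-/- A (0.0513) or Fyco1-/- C (0.0529). It also ended under median-of-ratios scaling (0.0726) and without the filter on low values (0.0616). WT B, the library with the highest sum of macrophage markers, also had the highest level of both Cd63 and Psap. Without WT B the log2 difference was -0.19 for Cd63 and -0.13 for Psap. For each gene this was the smallest difference in size among the fits with a library left out. The part of macrophages in these values was not tested. A near-identical pseudogene, Cd63-ps, was at 0.328 FPKM or less.

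The main structural proteins of the lysosomal membrane are LAMP1 and LAMP2. Lamp1 was the most abundant of the 42 genes, at 93.1, 94.9 and 90.5 FPKM in WT and 96.0, 102.0 and 95.2 in Fyco1-/- libraries (log2 difference 0.07, limma adjusted p = 0.319). Lamp2, which also serves chaperone-mediated autophagy, stood at 17.9, 15.97 and 15.1 FPKM in WT and 20.7, 19.1 and 18.2 in Fyco1-/- libraries. For both genes every Fyco1-/- library was above every WT library, and neither passed. The mean of Lamp2 was 16.3 ± 1.45 FPKM (SD, n = 3) in WT and 19.3 ± 1.30 (SD, n = 3) in Fyco1-/-, with a log2 difference of 0.24 (SE 0.08, limma adjusted p = 0.085). It passed after median-of-ratios scaling (limma adjusted p = 0.0231), and in the authors' deposited table, where its log2 fold change was 0.28 with an adjusted p of 0.00166. The ratio of Lamp1 to Lamp2 in FPKM ran from 4.63 to 6.01 over the 6 libraries, and its range overlapped between genotypes.

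Npc1, the membrane transporter that exports cholesterol from the lysosome, was the least abundant of the 10 membrane proteins. Its levels were 2.96, 2.81 and 2.50 FPKM in WT and 4.0, 3.45 and 3.10 in Fyco1-/- libraries. The groups did not overlap, and the log2 difference of 0.30 (SE 0.11) had a limma adjusted p of 0.129. It passed under quantile normalization (log2 difference 0.37, limma adjusted p = 0.0405). In the authors' deposited table its log2 fold change was 0.35, with an adjusted p of 0.0210. Scarb2, or LIMP-2, the receptor that carries beta-glucocerebrosidase to the lysosome, was at 7.79, 8.12 and 7.92 FPKM in WT and 5.66, 6.80 and 6.88 in Fyco1-/- libraries, again without overlap (log2 difference -0.29, limma adjusted p = 0.0695). The other 5 overlapped between genotypes. Mcoln1, the calcium channel mucolipin, was at 21.1 to 23.4 FPKM in WT and 21.2 to 25.6 in Fyco1-/- libraries, and the transporter-like Laptm4a and Laptm4b, Tmem192 and Cln3 had log2 differences of 0.04, -0.09, 0.07 and -0.12. Laptm4b has a near-identical copy elsewhere. Exons of Npc1, Lamp1, Tmem192 and Cln3 overlap genes of the opposite strand.

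None of the 8 V1 subunits passed in either direction; 6 had positive and 2 had negative log2 differences, with a median of 0.071. The most abundant was Atp6v1f at 75.6, 71.4 and 81.1 FPKM in WT and 84.3, 82.5 and 80.4 in Fyco1-/- libraries, and the least abundant Atp6v1h at 8.91, 10.03 and 9.76 in WT and 9.67, 10.52 and 9.91 in Fyco1-/- libraries. Both overlapped between genotypes (limma adjusted p = 0.189 and 0.622). Atp6v1b2, the B subunit of the ATP-hydrolysing hexamer, stood at 62.6, 57.3 and 54.1 FPKM in WT and 63.5, 63.5 and 68.6 in Fyco1-/- libraries. The lowest Fyco1-/- library lay just above the highest WT library, and the log2 difference was 0.17 (SE 0.06, limma adjusted p = 0.108). The authors' deposited table gives Atp6v1b2 a log2 fold change of 0.21 with an adjusted p of 0.00444.

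Atp6v1a, the catalytic A subunit that alternates with B in the hexamer, was at 10.83, 10.46 and 10.67 FPKM in WT and 10.8, 11.2 and 9.99 in Fyco1-/- libraries, with overlap (log2 difference 0.0015, 95% interval -0.15 to 0.15, limma adjusted p = 0.992). A and B are present in equal number in the ring. The FPKM of Atp6v1b2 was 5.07 to 6.86 times that of Atp6v1a in the 6 libraries. Atp6v1c1, of the regulatory stalk, did not overlap between genotypes, at 17.6 to 18.77 FPKM in WT and 18.8 to 21.2 in Fyco1-/- libraries (log2 difference 0.11, limma adjusted p = 0.296). Of the stalk subunits, Atp6v1d, Atp6v1e1 and Atp6v1g1 overlapped, with log2 differences of -0.01, -0.08 and 0.08. Near-identical copies of Atp6v1f and Atp6v1g1 transcripts exist elsewhere in the annotation, and exons of Atp6v1h overlap a gene of the opposite strand.

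None of the 5 V0 subunits passed, 4 of the 5 differences were positive, and the median was 0.10. Atp6v0b, of the proton-carrying ring, was the most abundant at 35.3, 34.1 and 32.2 FPKM in WT and 40.6, 36.8 and 33.99 in Fyco1-/- libraries, which overlap (limma adjusted p = 0.281). Atp6v0e, the small e subunit, was the least abundant at 4.58, 4.82 and 4.47 FPKM in WT and 4.43, 4.33 and 4.36 in Fyco1-/- libraries, the single V0 gene with a negative difference (-0.07, limma adjusted p = 0.631). Atp6v0d1, which couples the V1 stalk to the ring, was at 29.4, 27.5 and 27.6 FPKM in WT and 30.8, 31.2 and 32.1 in Fyco1-/- libraries. Its groups did not overlap (log2 difference 0.15, limma adjusted p = 0.0908), and it passed after median-of-ratios scaling (limma adjusted p = 0.0447). Atp6v0a1, which forms the half-channels for protons, also did not overlap, at 8.78 to 9.15 FPKM in WT and 9.37 to 10.1 in Fyco1-/- libraries, whereas Atp6v0c, the other ring subunit, did (log2 differences 0.10 and 0.01). Atp6v0c has a near-identical copy elsewhere, and Atp6v0b overlaps an antisense gene.

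Of the 2 accessory proteins, Atp6ap2, the (pro)renin receptor, which is needed to assemble the pump, rose. Atp6ap2 (ENSMUSG00000031007, GRCm38 chrX:12587801-12617049, plus strand) stood at 12.4, 14.1 and 13.4 FPKM in WT and 15.3, 16.6 and 15.8 in Fyco1-/- libraries. Its groups did not overlap. The mean was 13.3 ± 0.845 FPKM (SD, n = 3) in WT and 15.9 ± 0.665 (SD, n = 3) in Fyco1-/-, a ratio of 1.19, and the log2 difference was 0.25 (SE 0.07, limma adjusted p = 0.0460). The call ended whichever single library was left out (limma adjusted p 0.0575 to 0.15) and without the filter on low values (0.108). It held under median-of-ratios scaling (0.0321). An annotated pseudogene, Gm36448, is 98.4% identical to its transcript over 438 bases, so the level depends on how reads that match both were counted. The other X-linked genes among the 42 are Atp6ap1, Gla, Lamp2 and Tfe3, and the libraries differed in the summed FPKM of 4 Y-linked genes, 6.63 in WT A and 14.03 to 19.2 in the other 5. Without WT A the log2 difference was 0.20 for Atp6ap2 and 0.31 for Lamp2 (limma adjusted p = 0.147 and 0.0504). Among the fits with a library left out, this was the smallest difference for Atp6ap2 and the largest for Lamp2. The part of sex in these values was not tested. Atp6ap1, the other accessory protein, was at 37.0, 34.7 and 34.3 FPKM in WT and 33.7, 34.9 and 34.8 in Fyco1-/- libraries, with overlap (log2 difference -0.04, limma adjusted p = 0.696).

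**Figure D3:**
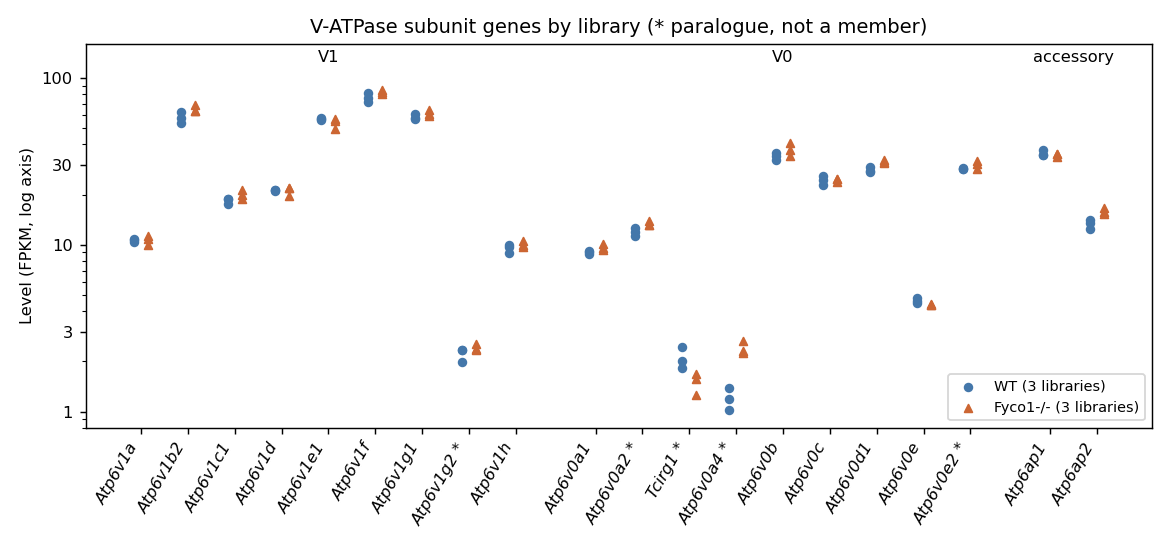
FPKM (log axis) of the V-ATPase V1, V0 and accessory genes in each library, blue for WT and orange for Fyco1-/-; an asterisk marks a paralogue outside the 42 genes. Levels differ far more between subunits than between genotypes, and Atp6v0a4 is the paralogue whose orange points lie farthest above the blue ones.

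Over all 15 V-ATPase genes 1 rose and none fell (6.67%, beside 8.43% of all genes tested). Of these 15 genes 11 had positive log2 differences, beside 40.1% of all genes tested, and the median of the 15 was 0.077. Their summed FPKM was 466, 451 and 456 in WT and 479, 485 and 482 in Fyco1-/- libraries, so each Fyco1-/- sum exceeded each WT sum. For the 12 hydrolases it was each WT sum that was the higher. The median of the hydrolases was negative and those of the V1 and V0 subunits positive under each of the 4 scalings tried (as deposited, quantile, median-of-ratios, and crystallins left out). These medians are descriptions, and no test was made of the difference between the groups of genes.

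The 3 MiT factors showed no called difference. Tfeb stood at 4.87, 6.44 and 5.08 FPKM in WT and 6.07, 6.36 and 5.50 in Fyco1-/- libraries, which overlap (log2 difference 0.13, SE 0.11, limma adjusted p = 0.516). Tfe3 was at 3.46, 3.90 and 3.29 FPKM in WT and 3.21, 2.97 and 2.99 in Fyco1-/- libraries. All Fyco1-/- values of Tfe3 were the lower ones, without passing (log2 difference -0.19, SE 0.10, limma adjusted p = 0.267). Mitf was at 3.91, 4.12 and 3.62 FPKM in WT and 3.79, 4.36 and 3.27 in Fyco1-/- libraries, with overlap (log2 difference -0.03, limma adjusted p = 0.892). The activity of these factors is set largely by phosphorylation and entry into the nucleus, which transcript levels do not measure.

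The start-site windows of the 42 genes were searched for the E-box CACGTG, its longer form TCACGTGA, and that form with a G before it and a C after it, the full CLEAR element. Each motif reads the same on both strands, and each longer one contains the shorter. RefSeq windows on GRCm38.p6, from 250 bases before to 50 after the start, were held for 35 of the 42 genes. Of these 35 genes 12 held CACGTG (34.3%), beside 12.3% of the tested genes with a window, and 6 held TCACGTGA (17.1%), beside 2.39%. The full element was found for 1 gene, Cln3 (2.86%), beside 0.907%. The 7 matches of TCACGTGA in the 6 genes are printed with 10 bases on either side, 5′ to 3′ on the strand of the gene, to show the bases around each one, with the motif searched for in capitals.
Gla, chrX:134601183-134601210, minus strand: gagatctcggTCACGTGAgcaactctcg
Gla, chrX:134601216-134601243, minus strand: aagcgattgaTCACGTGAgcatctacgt
Cln3, chr7:126583341-126583368, minus strand: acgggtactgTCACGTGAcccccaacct
Mcoln1, chr8:3500463-3500490, plus strand: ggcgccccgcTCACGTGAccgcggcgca
Atp6v1a, chr16:44139374-44139401, minus strand: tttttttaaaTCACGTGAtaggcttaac
Atp6v0d1, chr8:105566051-105566078, minus strand: cctactgcggTCACGTGAgacgcggtgc
Atp6v0e, chr17:26676388-26676415, plus strand: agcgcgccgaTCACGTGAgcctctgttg

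These matches span a hydrolase, 2 membrane proteins, a V1 and 2 V0 subunits. None of the 6 genes passed the test, and their median log2 difference was 0.0084, in a range from -0.12 to 0.15. Among the 29 genes whose window lacks TCACGTGA, 3 passed and the median was -0.03. Of the 12 genes with CACGTG none passed (median -0.03), and of the 23 without it 3 did (median -0.01). Over all genes tested 8.43% passed, and neither these counts nor these medians were tested against each other. Asah1 is among the 7 genes with no window.

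Lysosomal genes outside the 42 were read from 6 lists that hold none of them. Of 120 genes tested, 5 rose and 3 fell (6.67% passed, beside 8.43% of all genes tested). Of 32 other hydrolases and cofactors 1 rose. Hgsnat, the membrane enzyme that acetylates heparan sulfate in the same pathway as Sgsh and Naglu, rose from 12.0, 12.0 and 11.4 to 18.1, 15.7 and 16.9 FPKM (log2 difference 0.50, SE 0.07, limma adjusted p = 0.00128). Of 23 other membrane proteins 1 rose and 1 fell. The lipid transporter gene Abca2 fell from 12.9, 13.9 and 12.8 to 11.5, 10.9 and 10.2 FPKM (log2 difference -0.27, limma adjusted p = 0.0375). That call ended when any library but Fyco1-/- A was left out (limma adjusted p 0.0571 to 0.132), and without the filter on low values (0.0918).

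Of 14 further V-ATPase subunits and assembly factors 1 rose and 1 fell. Atp6v0a4, the a4 isoform of the subunit that Atp6v0a1 also encodes, rose from 1.38, 1.02 and 1.18 to 2.25, 2.29 and 2.64 FPKM (log2 difference 0.77, SE 0.12, limma adjusted p = 0.00404). Among the 4 genes of the a subunit, it made up 4.19% to 5.72% of their summed FPKM in WT and 8.03% to 9.85% in Fyco1-/- libraries, while Atp6v0a1 made up 34.9% to 38.0% over the 6 libraries and Atp6v0a2 46.9% to 51.4%. Tcirg1, the a3 isoform, made up 7.51% to 10.1% in WT and 4.82% to 5.99% in Fyco1-/- libraries, and did not pass by its own level (log2 difference -0.37, limma adjusted p = 0.115). Ncoa7, whose protein binds the pump, fell from 8.55, 7.28 and 8.11 to 5.88, 5.49 and 6.03 FPKM (log2 difference -0.43, limma adjusted p = 0.0109).

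Of 16 genes of hydrolase tagging and sorting 1 fell. Igf2r, the cation-independent mannose 6-phosphate receptor, fell from 23.9, 24.2 and 22.9 FPKM in WT to 16.5, 17.7 and 16.1 in Fyco1-/- libraries (log2 difference -0.48, SE 0.06, limma adjusted p = 0.000657), and it passed in all 15 alternatives. M6pr, the cation-dependent receptor for the same tag, had means of 7.21 and 7.39 FPKM (log2 difference 0.03, limma adjusted p = 0.855). Of 21 genes of mTORC1, its regulators Rheb, the TSC proteins, the Rag GTPases and Ragulator, and of the folliculin complex and calcineurin, which act on the MiT factors, 2 rose. Tsc2, of the complex that restrains Rheb, rose from 64.4, 68.4 and 64.6 to 77.04, 80.95 and 77.7 FPKM (log2 difference 0.25, limma adjusted p = 0.0055), and Lamtor1, the membrane anchor of Ragulator, from 26.7, 26.9 and 27.8 to 31.8, 31.6 and 31.5 FPKM (0.22, limma adjusted p = 0.0173). The Lamtor1 call ended when any library but WT C or Fyco1-/- A was left out (0.0503 to 0.0664). Of 14 genes of BORC, Arl8 and lysosome transport none passed. Exons of Tsc2, Lamtor1 and Atp6v0a4 overlap genes of the opposite strand, and those of Ncoa7 and Atp6v0a4 genes of the same strand.

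Which of the borderline genes passed depended on the scaling. After median-of-ratios scaling 3 of the 42 genes were higher (Atp6ap2, Lamp2 and Atp6v0d1) and 1 lower (Asah1), where 9.15% of genes passed. The median of all genes moved from -0.043 to -0.00074, that of the 42 genes from 0.0032 to 0.051, and the share of all calls that were higher from 40.5% to 57.0%. In the authors' deposited table, 4 of the 42 genes were higher at an adjusted p under 0.05 (Lamp2, Npc1, Atp6v1b2 and Atp6ap2) and 1 lower (Asah1), where 9.37% of its genes with an adjusted p were called, 5.22% higher and 4.15% lower. Asah1 lower and Atp6ap2 higher were called in all 3 analyses. For Psap and Cd63 the authors' deposited table gives log2 fold changes of -0.12 and -0.18 with adjusted p of 0.136 and 0.0980.

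**Figure D4:**
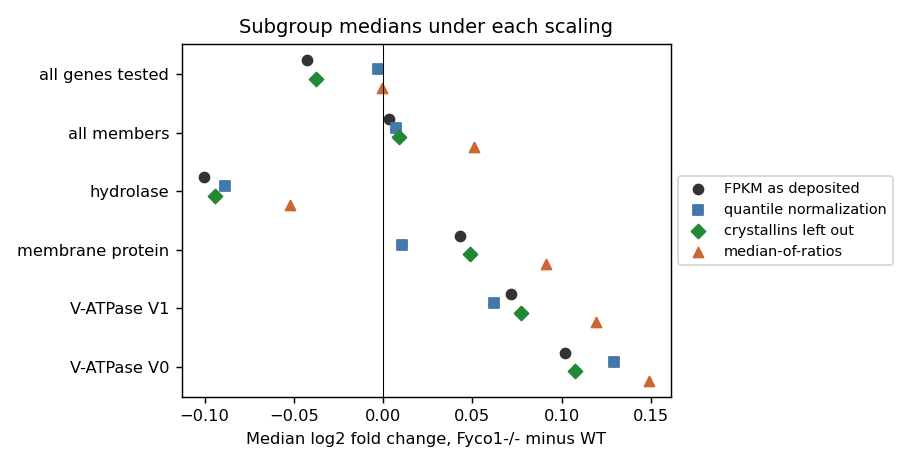
Median log2 difference (Fyco1-/- minus WT) of all genes tested, the 42 lysosomal genes, the hydrolases, the membrane proteins and the V1 and V0 subunits under 4 scalings of the FPKM values. Median-of-ratios scaling moves every group upward by a like amount. The order of the groups, hydrolases lowest and V0 subunits highest, is the same in all 4. Median-of-ratios scaling and leaving out crystallins divide each library by a single factor, so they could hardly change that order.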

How the data were processed

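Per the labels, the NEB Next Ultra kit was used and paired reads came from an Illumina HiSeq. The authors aligned them with STAR 2.5 to GRCm38/mm10, obtained gene counts with HTSeq 0.6.1 and deposited FPKM values. The authors also deposited log2 fold changes, p-values and adjusted p-values from DESeq2. The DESeq2 release, the gene annotation and the strand setting are not given in the sources used here. Without strand, reads of overlapping genes on opposite strands cannot be told apart.

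No counts were used, so log2(FPKM + 0.5) was tested with limma 3.58.1 in R 4.3.3 (trend and robust moderation, genotype as the only term, two-sided) for genes with a mean of at least 0.5 FPKM. Log2 differences on this scale understate the change of low genes, and ratios in the text are of mean FPKM. The steps were tested on simulated data. Depths are estimates from the spacing of small FPKM values, of which 54.4% to 56.3% a library lay within 0.05 of a whole read (10% by chance), too few to recover counts. An exact permutation test of 3 against 3 cannot go below p = 0.1. The labels call the libraries biological replicates of pooled lenses. Positions come from GENCODE M21 (GRCm38) and 20782 entries matched 1 of its genes. Near-identical transcripts were sought with blastn 2.17.0 (at least 95% identity over 100 bases) and exon overlaps of at least 50 bases were noted.

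Members and gene lists were chosen with earlier results of these data known, and no test over a list was made. Values in every library are given for called genes, the most and least abundant gene of each subgroup, genes under 0.05 in the authors' deposited table and the MiT factors, and called genes of the other lists are named up to the 6 with the smallest p. A called gene of these lists is not reported here. Other values shown were chosen after they were seen. The alternatives were pseudocounts of 0.1 and 1, no filter, no robust moderation, 1 FPKM or more in 3 libraries, quantile and median-of-ratios scaling, crystallins left out, a replicate block and each library left out.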

Additional observations from a re-analysis of the deposited data

How the results depend on the processing

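Over 15 alternatives, the 42 genes gave 630 differences, of which 584 kept their direction and side of the threshold, 22 lost a call, 5 gained one and 19 changed sign, the last all in uncalled genes. The count of the 42 genes called higher (1) was 0 without a filter on low values, 2 under quantile normalization, 3 under median-of-ratios scaling, 2 with the replicate block and 0 to 0 when 1 library was left out. The count called lower (3) was 1 without the filter, 1 under median-of-ratios scaling and 1 to 4 when 1 library was left out. The count of all genes called (1012) was 568 without the filter and 611 to 870 when 1 library was left out (614 without WT A, 611 without WT B, 670 without Fyco1-/- B and 641 without Fyco1-/- C), the fit then holding fewer samples. The median of the 42 genes (0.0032) was 0.051 under median-of-ratios scaling and -0.023 to 0.012 when 1 library was left out. The other lysosomal genes called (8) came to 13 under median-of-ratios scaling and to 5 to 8 when 1 library was left out (5 without WT B).

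The log2 difference changed sign for Laptm4a under quantile normalization (-0.012), for Atp6v1d (0.035) and Atp6ap1 (0.012) under median-of-ratios scaling, and for Mitf under both (0.021 and 0.012). When 1 library was left out, it ran from -0.046 to 0.11 for Gla, -0.011 to 0.020 for Hexa, -0.034 to 0.097 for Mcoln1, -0.015 to 0.13 for Tmem192, -0.034 to 0.046 for Atp6v1a, -0.041 to 0.039 for Atp6v1d, -0.032 to 0.055 for Atp6v0c and -0.12 to 0.062 for Mitf. The cause of these changes was not tested. No pairing by library letter was seen (same-letter deviations correlated at -0.03 for A, 0.03 for B and 0.03 for C), and with the replicate block Lamp2 was called (limma adjusted p = 0.0365) and Psap was not (0.0804). Depth limits Gla and Sgsh most, at an estimated 89 to 158 reads a library.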

Other observations

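Paralogues of the V-ATPase subunits differed in which one dominated in the lens. Atp6v0e2 was 5.95 to 7.38 times as abundant in FPKM as Atp6v0e in the 6 libraries, at 28.6, 28.7 and 28.9 FPKM in WT and 30.4, 32.0 and 28.4 in Fyco1-/- libraries. Atp6v0a2 was 1.23 to 1.41 times as abundant as Atp6v0a1, at 12.0, 12.5 and 11.3 FPKM in WT and 13.95, 13.1 and 13.2 in Fyco1-/- libraries, where the groups did not overlap (log2 difference 0.16, limma adjusted p = 0.147). Atp6v1g1 was 23.5 to 29.0 times as abundant as Atp6v1g2. The tissue-restricted subunits Atp6v1b1, Atp6v1c2, Atp6v1e2 and Atp6v0d2 were below the filter on low values. Among the 42 genes the mean WT level ran from 1.71 FPKM for Sgsh to 92.8 for Lamp1, the 24.4th and 97.1st percentile of genes tested.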
